A study of Mus musculus with 22 samples.

Results

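Collagen prolyl and lysyl hydroxylases were followed through cultured mouse liver cells from which iron was withdrawn or to which iron was added. The 7 genes were taken by symbol: P4ha1, P4ha2, P4ha3 and P4hb, whose products form the collagen prolyl 4-hydroxylases, and Plod1, Plod2 and Plod3, the lysyl hydroxylases. All 7 had a row among the 55401 genes of the hepatocyte values and among the 55573 genes of the stellate cell values. The cells were primary cells of wild-type C57BL/6 mice fed chow, plated for 24 h and then treated for 24 h. Hepatocytes, which make up most of the liver, were grown on collagen-coated plates in Williams Medium E with serum and received 100 uM deferoxamine (DFO), a chelator that binds iron, or, as controls, what the labels call placebo (6 libraries each). Hepatic stellate cells, pericytes of the liver sinusoids that store vitamin A, were grown in DMEM with serum and received 100 uM iron or placebo (5 libraries each); the iron compound is not named in the sources used here. The labels do not say whether the libraries of a group came from separate animals or cultures, so p-values cover only the spread among the libraries listed, which may be technical spread.

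These enzymes act on collagen chains inside the endoplasmic reticulum, before the chains leave the cell. They need ferrous iron, oxygen, 2-oxoglutarate and ascorbate. A collagen prolyl 4-hydroxylase joins catalytic alpha subunits (P4ha1, P4ha2 or P4ha3) to beta subunits, which are the protein disulphide isomerase P4hb; 4-hydroxyproline keeps the collagen triple helix stable at body temperature. Lysyl hydroxylases modify lysines that later carry sugars or enter cross-links: Plod1 acts on the helical part of the chains, Plod2 on the telopeptides at their ends, and Plod3 also adds glucose to the galactose already on hydroxylysine. Activated stellate cells are the main source of collagen in liver fibrosis. P4ha1, P4ha2 and Plod2 are known targets of hypoxia-inducible factor (HIF), a transcription factor whose degradation is triggered by related iron-dependent prolyl hydroxylases.

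A hepatocyte library held between 19342490 and 41839154 counts in total, a stellate cell library between 12058226 and 32067635. Iron libraries 3 and 5 and control library 3 of the stellate cultures stood apart. Their FPKM values (counts per kilobase of exon, scaled to the library's total) added up to 424253, 503333 and 483000, whereas the other 7 stellate libraries had sums of 297988 to 333718, and iron library 5 had a count in 12535 genes, against 18753 to 24278 in the other 9. They did not stand apart in the same way. The mean exon length of a gene behind a count was 4.27 and 4.02 kb in iron libraries 3 and 5, but 7.23 kb in control library 3. It was 5.16 to 5.69 kb in the other 7 stellate libraries. The stellate comparison is therefore given over all 10 libraries and over the 7 libraries without iron libraries 3 and 5 and control library 3. This choice of libraries was made with the data in view. Hepatocyte markers, led by Alb at 9883 ± 688.6 CPM in DFO hepatocytes and 7688 ± 598.9 CPM in control hepatocytes (counts scaled to a common library size, TMM-normalised; mean ± SD, n = 6 each), were present in the hepatocyte libraries; of the 9 tested, 3 were higher with DFO and 5 lower, among them Hnf4a at a log2 change of -0.92. In the stellate libraries, the 9 stellate cell markers summed to 518.5 to 689.5 CPM with iron and 986.8 to 1856 CPM in controls, and 9 hepatocyte markers to 45.3 to 121 CPM with iron and 103.9 to 195.4 CPM in controls. No gene of any of the 6 marker lists was at 0 in every library.

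The first comparison asked what iron chelation does to hepatocytes. All 6 hydroxylase transcripts abundant enough to test were higher with DFO (edgeR's quasi-likelihood test, Benjamini-Hochberg adjusted p under 0.05 over 15660 genes). Of all genes tested, 27.9% were called higher and 30.1% lower, 58.0% in either direction. Plod2, P4ha1 and P4ha2 rose most, each by over 1.9 on the log2 scale, P4hb rose by 0.64, and Plod1 and Plod3 rose by 0.21 and 0.24. DFO and control libraries were fully apart for 5 of the 6, Plod1 being the exception; of all genes tested, 16.6% were higher with no overlap and 19.4% lower, 35.9% together. The median log2 change of the 6 tested hydroxylases was 1.30, against -0.001 over all genes tested.

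The promoters of P4ha1 and P4ha2, the alpha subunit genes that rose most, and of Plod3, which rose little, are shown to set their sequences beside these changes. The sequences are from RefSeq (GRCm38.p6, the mm10 build), 5′ to 3′ along the gene's strand, from 250 bases before the annotated start site to 50 bases after it. Capitals mark every match to ACGTG or GCGTG, the core of the site that HIF is known to bind, on either strand, so that a match on the opposite strand reads CACGT or CACGC.
P4ha1 (chr10:59323046-59323345, + strand): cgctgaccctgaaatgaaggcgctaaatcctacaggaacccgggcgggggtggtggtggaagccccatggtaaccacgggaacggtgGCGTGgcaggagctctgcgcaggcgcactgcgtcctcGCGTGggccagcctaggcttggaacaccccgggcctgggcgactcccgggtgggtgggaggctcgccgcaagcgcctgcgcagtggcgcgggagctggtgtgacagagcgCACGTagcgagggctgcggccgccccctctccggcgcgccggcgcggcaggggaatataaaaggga
P4ha2 (chr11:54100674-54100973, + strand): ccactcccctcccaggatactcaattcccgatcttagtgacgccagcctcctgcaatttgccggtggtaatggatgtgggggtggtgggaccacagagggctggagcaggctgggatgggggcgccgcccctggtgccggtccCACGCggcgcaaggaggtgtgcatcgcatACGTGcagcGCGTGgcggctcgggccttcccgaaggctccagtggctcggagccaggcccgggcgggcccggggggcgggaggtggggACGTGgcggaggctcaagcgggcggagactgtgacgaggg
Plod3 (chr5:136986769-136987068, + strand): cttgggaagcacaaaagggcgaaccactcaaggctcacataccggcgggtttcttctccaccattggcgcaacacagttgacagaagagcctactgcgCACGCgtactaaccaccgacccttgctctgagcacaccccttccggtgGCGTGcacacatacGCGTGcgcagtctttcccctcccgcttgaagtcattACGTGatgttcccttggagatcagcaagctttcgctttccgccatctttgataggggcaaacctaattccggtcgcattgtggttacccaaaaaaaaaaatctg
P4ha1 held 3 matches, whose first bases lie at -163, -126 and -16 from the start site. P4ha2 held 4 matches, at -107, -78, -69 and 10, around a start site at 54100924, whereas its gene in the deposited values starts at 54100095. Plod3, which rose by 0.24 on the log2 scale, also held 4 matches, at -152, -104, -90 and -54. Of the other members with an entry, P4hb held 3 matches, Plod1 2 and P4ha3 0; Plod2 is named only. Over 32851 RefSeq promoters of the same length, 43.8% held at least 1 match, 20.6% at least 2, 8.93% at least 3 and 3.86% at least 4. Whether the number of matches follows the size of the change was not tested. Plod2, which rose most, had no promoter entry, and P4ha3 was too low to test for a change. A match is a string of letters in this window, not a bound site.

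P4ha1 (ENSMUSG00000019916, chromosome 10, 59323296 to 59373304, mm10), the alpha subunit of the most widespread form of the enzyme, had a lowest, median and highest value of 84.1, 91.0 and 95.2 CPM in DFO hepatocytes, against 16.1, 17.0 and 19.0 CPM in control hepatocytes. Every DFO library stood above every control library. The log2 change was 2.37 ± 0.06 (SE; edgeR adjusted p = 2.15e-15), the 97th highest of 15660 genes. P4ha2 (ENSMUSG00000018906, chromosome 11, 54100095 to 54131665), the alternative alpha subunit, had 150.0, 163.1 and 184.9 CPM in DFO hepatocytes, against 39.9, 43.0 and 44.6 CPM in control hepatocytes. These ranges were also apart, with a log2 change of 1.96 ± 0.06 (edgeR adjusted p = 7.06e-14). P4ha3 (ENSMUSG00000051048, chromosome 7, 100285520 to 100319699), the third alpha subunit, was close to the limit of detection at 0.0272 to 0.232 CPM in DFO hepatocytes and 0.0537 to 0.358 CPM in control hepatocytes, and stayed out of the test.

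P4hb (ENSMUSG00000025130, chromosome 11, 120560298 to 120573253), the beta subunit and a general folding enzyme, was the most abundant member. It had 1091, 1168 and 1263 CPM in DFO hepatocytes, against 692.1, 759.7 and 784.0 CPM in control hepatocytes. The groups did not overlap, and the log2 change was 0.64 ± 0.05 (SE; edgeR adjusted p = 8.64e-09), smaller than that of either alpha subunit. FPKM divides the counts of a gene by all exon bases listed for it. Levels, shares and ratios between genes on this scale depend on those listed lengths, as the lengths of the transcripts present were not measured. By FPKM the 3 alpha subunits summed to 47.97 ± 2.68 in DFO hepatocytes and 11.3 ± 0.37 in control hepatocytes (SD, n = 6 each). P4hb had 8.39 ± 0.21 FPKM per FPKM of alpha subunits in DFO hepatocytes and 23.5 ± 1.45 in control hepatocytes.

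Plod2 (ENSMUSG00000032374, chromosome 9, 92542223 to 92608428) had 53.5, 57.9 and 66.9 CPM in DFO hepatocytes, against 7.66, 8.50 and 9.92 CPM in control hepatocytes. With a log2 change of 2.75 ± 0.07 by edgeR (SE; adjusted p = 8.69e-15) it ranked 57th highest of 15660 genes, and the groups did not overlap. Plod1 (ENSMUSG00000019055, chromosome 4, 147909753 to 147936767) had 78.95, 83.2 and 90.5 CPM in DFO hepatocytes, against 66.4, 72.4 and 79.8 CPM in control hepatocytes. Its ranges touched at their ends, and its log2 change was 0.21 ± 0.06 (edgeR adjusted p = 0.00380). Plod3 (ENSMUSG00000004846, chromosome 5, 136987019 to 136996648) had 87.2, 92.6 and 105.5 CPM in DFO hepatocytes, against 71.7, 80.8 and 85.9 CPM in control hepatocytes, a log2 change of 0.24 ± 0.06 (edgeR adjusted p = 0.00308) with ranges just apart. Plod3 overlaps Znhit1 on the opposite strand, whose counts came to 46.0% of those of Plod3 and whose own log2 change was 0.32 ± 0.08 (edgeR adjusted p = 0.00196); as the strand setting of the counting is not given in the sources used here, reads of the pair cannot be told apart.

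**Figure D1:**
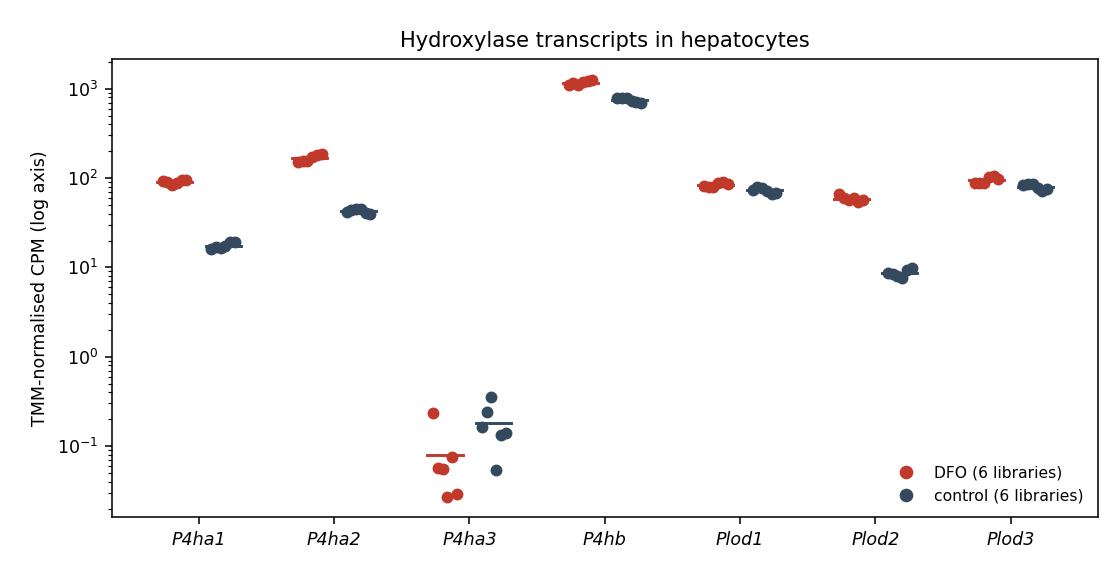
TMM-normalised CPM of the 7 hydroxylase transcripts in each hepatocyte library (log axis), DFO libraries left of control libraries for each gene, with bars for the mean. P4ha1, P4ha2 and Plod2 are far apart between the groups, P4hb and Plod3 narrowly apart, Plod1 touches, and P4ha3 lies under 1 CPM.

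The order of the levels changed. By mean FPKM, DFO hepatocytes held P4hb (402.4 ± 19.2), P4ha2 (26.2 ± 2.09), P4ha1 (21.7 ± 1.00), Plod3 (20.6 ± 1.52), Plod1 (12.2 ± 0.61), Plod2 (10.7 ± 0.93) and P4ha3 (0.025 ± 0.023; SD, n = 6). The ranges of P4ha1 and Plod3, and of Plod1 and Plod2, overlapped in that group. Control hepatocytes held P4hb (265.1 ± 10.2), Plod3 (17.9 ± 1.15), Plod1 (10.9 ± 0.64), P4ha2 (6.92 ± 0.31), P4ha1 (4.31 ± 0.37), Plod2 (1.63 ± 0.18) and P4ha3 (0.06 ± 0.035), with no overlap between neighbours. Plod2 was thus the lowest lysyl hydroxylase in every control library and overlapped Plod1 in DFO hepatocytes.

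Ratios between members, taken within each library on FPKM, measured how unequally they moved. The alpha subunits stood to P4hb at 0.117 to 0.123 in DFO hepatocytes and at 0.0390 to 0.0457 in control hepatocytes, a geometric mean ratio 2.80-fold higher with DFO. Plod2 stood to Plod1 at 0.742 to 1.04 in DFO hepatocytes and at 0.129 to 0.182 in control hepatocytes, a 5.88-fold difference, and its ratio to Plod3 differed 5.74-fold. These ratios were higher in all 6 DFO libraries than in any control library. So was P4ha1 to P4ha2, at 0.777 to 0.938 in DFO hepatocytes and 0.569 to 0.723 in control hepatocytes. P4ha1 to Plod2 was lower with DFO, at 1.82 to 2.33 in DFO hepatocytes and 2.46 to 2.95 in control hepatocytes. Each of these 5 differences had an adjusted p of 0.00779 (exact permutation test, two-sided, adjusted over 18 tests of 6 ratios in 3 comparisons), from the smallest p that 6 against 6 libraries can give, 0.00216; with 1 added to each FPKM the difference in P4ha1 to Plod2 shrank to -0.06 on the log2 scale and lost its call (adjusted p = 0.339). Plod3 to Plod1 was 1.62 to 1.75 in DFO hepatocytes and 1.61 to 1.72 in control hepatocytes, a log2 difference of 0.035 ± 0.021 (SE; exact permutation test, adjusted p = 0.132).

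As shares of lysyl hydroxylase FPKM, Plod2 held 24.7% ± 2.50 in DFO hepatocytes and 5.39% ± 0.82 in control hepatocytes (SD, n = 6 each). Plod3 held 47.3% ± 2.02 in DFO hepatocytes and 58.8% ± 0.83 in control hepatocytes, and Plod1 28.1% ± 0.51 in DFO hepatocytes and 35.8% ± 0.53 in control hepatocytes. P4ha1 held 45.3% ± 1.78 of alpha subunit FPKM in DFO hepatocytes and 38.1% ± 2.65 in control hepatocytes, with P4ha2 as nearly all of the rest.

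**Figure D2:**
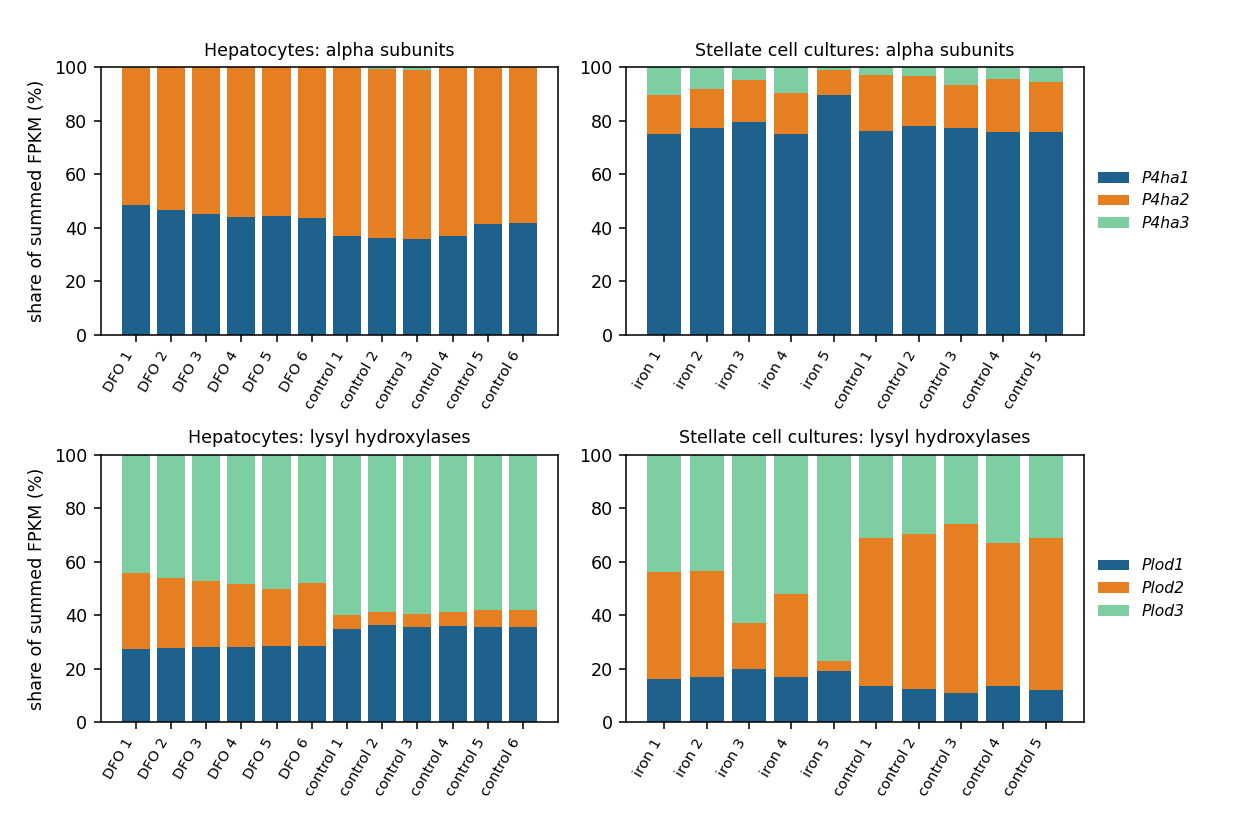
Share of each alpha subunit in the summed alpha subunit FPKM (upper row, percent) and of each lysyl hydroxylase in the summed lysyl hydroxylase FPKM (lower row, percent), per library, treated libraries left of controls. The Plod2 share is 21.3% to 28.4% in DFO hepatocytes and 4.63% to 6.48% in control hepatocytes, and 3.57% to 39.8% in iron-treated stellate cultures and 53.7% to 63.0% in control stellate cultures.

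The other genes of collagen synthesis moved in both directions in DFO hepatocytes: of 68 genes in 10 lists, 57 were tested, 15 were higher and 21 lower, with a median log2 change of -0.23. Of all genes tested 27.9% were higher and 30.1% lower, so these counts lie near the background. Egln3, a prolyl hydroxylase that acts on HIF, had the largest change of these genes, with 68.8 ± 5.35 CPM in DFO hepatocytes and 3.61 ± 0.43 CPM in control hepatocytes (SD, n = 6 each) and a log2 change of 4.26 ± 0.08 by edgeR (SE; adjusted p = 8.81e-17). Egln1 rose by 1.75 ± 0.05, Egln2, the remaining HIF prolyl hydroxylase of that family, had a log2 change of 0.05 that did not pass (edgeR adjusted p = 0.581), and Ogfod1, a ribosomal prolyl hydroxylase, fell by 0.23 ± 0.06, so that 2 of the 5 in that list rose and 1 fell. Slc2a1, a glucose transporter that also carries dehydroascorbate, rose by 2.63 ± 0.06 in the list on ascorbate supply (3 of 6 tested higher, 1 lower). Gulo, the last enzyme of ascorbate synthesis in mice, fell to 24.6 ± 1.58 CPM in DFO hepatocytes, against 30.5 ± 1.74 CPM in control hepatocytes (SD; edgeR adjusted p = 0.000149).

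Partners of the hydroxylases inside the endoplasmic reticulum are given by list, against the 30.1% of all genes called lower and 27.9% called higher. In the prolyl 3-hydroxylase complex, 3 of 6 genes fell: Ppib by 0.32 ± 0.06 on the log2 scale, Crtap by 0.19 ± 0.07 and P3h1 by 0.14 ± 0.05 (SE). Of 9 collagen chaperones, 6 fell and 1 rose. Fkbp9 fell by 0.37 ± 0.04, and Serpinh1, the collagen-specific chaperone, fell to 1.78 ± 0.95 CPM in DFO hepatocytes, against 5.00 ± 0.99 CPM in control hepatocytes (SD; edgeR adjusted p = 3.28e-05). Colgalt1, which adds galactose to hydroxylysine, fell by 0.52 ± 0.04 and was the only gene of its list tested. Of the 7 export genes 4 rose and 1 fell, with Mia3, which helps load collagen for export, higher by 0.45 ± 0.07.

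The 9 fibrillar collagen chains summed to 26.6 to 40.7 CPM in DFO hepatocytes and 32.5 to 42.2 CPM in control hepatocytes. The 11 network and beaded chains summed to 215.1 to 279.2 CPM in DFO hepatocytes and 448.9 to 531.3 CPM in control hepatocytes. Most of that sum was Col4a1, at 123.9 CPM with DFO and 228.4 CPM in controls, and Col4a2, at 94.0 and 188.9 CPM. Col1a1 had 7.11 ± 0.85 CPM in DFO hepatocytes and 17.9 ± 2.86 CPM in control hepatocytes (SD, n = 6 each), a log2 change of -1.33 ± 0.10 by edgeR (SE; adjusted p = 7.13e-09), and Col11a2 was higher by 0.79 ± 0.10; of 7 fibrillar chains tested, 1 rose and 1 fell. Of 5 network chains tested, 2 rose and 3 fell; Col4a1, Col4a2 and Col4a5 of basement membranes fell by 0.88 ± 0.06, 1.01 ± 0.06 and 0.81 ± 0.09. Of 6 procollagen trimming genes, 1 rose and 4 fell, led by Pcolce at -1.87 ± 0.12. Lox, a cross-linking oxidase that acts on lysine and hydroxylysine, had 97.5 ± 12.1 CPM in DFO hepatocytes and 63.5 ± 4.64 CPM in control hepatocytes (SD; log2 change 0.62 ± 0.08, edgeR adjusted p = 2.33e-06), and was the only called member of the 5 lysyl oxidases. Markers of other cells moved too: the 14 macrophage markers summed to 270.4 to 364.0 CPM in DFO hepatocytes and 179.9 to 209.8 CPM in control hepatocytes (10 of 13 tested higher), and the 9 stellate cell markers to 3.70 to 13.4 CPM in DFO hepatocytes and 1.38 to 4.25 CPM in control hepatocytes (2 of 3 tested higher). The 2 called, Reln and Rgs5, were scarce, at 1.38 ± 0.39 and 1.60 ± 0.79 CPM with DFO. Des, below the filter, had 1.28 ± 2.60 CPM with DFO and 0.56 ± 0.75 CPM in controls, with overlapping ranges. The 10 endothelial markers summed to 41.2 to 54.9 CPM in DFO hepatocytes and 34.7 to 40.9 CPM in control hepatocytes (3 of 10 higher). The 8 portal fibroblast and mesothelial markers summed to 485.2 to 623.2 CPM in DFO hepatocytes and 781.0 to 1063 CPM in control hepatocytes (3 of 4 tested lower). Nearly all of that sum was Fbln2, at 563.5 ± 48.6 CPM with DFO and 918.4 ± 116.9 CPM in controls (log2 change -0.70). Msln and Thy1, also lower, were at 2.76 and 0.74 CPM in controls. The 5 cholangiocyte markers summed to 271.2 to 380.2 CPM in DFO hepatocytes and 256.9 to 326.7 CPM in control hepatocytes (1 of 4 tested higher, 2 lower, Krt7 by 2.70). Their part in these results was not tested.

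**Figure D3:**
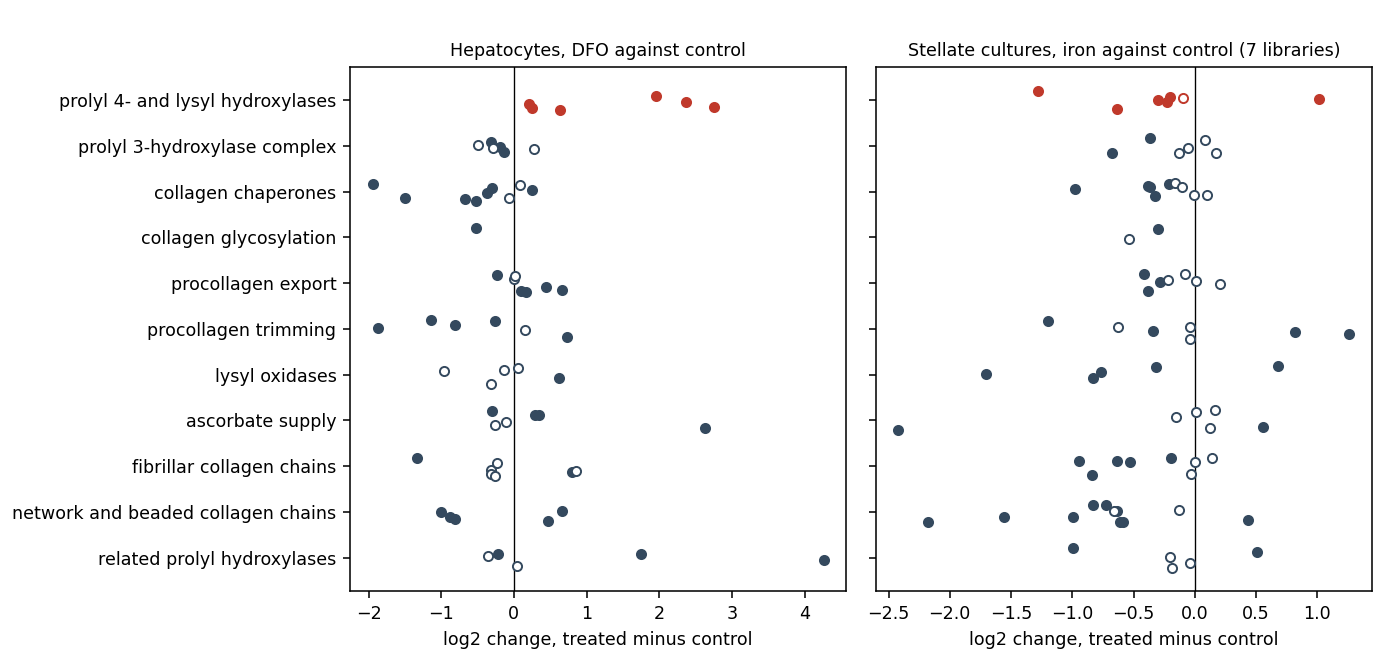
Log2 change of each tested gene (treated minus control; 1 point per gene, filled where the adjusted p is under 0.05) by list, for DFO hepatocytes (left) and for iron-treated stellate cultures over 7 libraries (right, on a scale of its own); height within a list only spreads the points. The prolyl 4- and lysyl hydroxylases lie to the right in hepatocytes, while most collagen chains and 4 of 5 lysyl oxidases lie to the left in the stellate cultures.

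The second comparison asked what added iron does to stellate cell cultures. Over all 10 libraries, Plod2 and P4ha2 were lower with iron, 2 of the 7 hydroxylases tested; of 15502 genes tested, 3.37% were called lower and 4.05% higher, 7.42% in either direction. For both the groups were apart, as for 13.4% of all genes in that direction, 8.42% in the other and 21.9% in either. Over the 7 libraries, Plod2, P4ha2, Plod1, P4ha1 and P4hb were lower and P4ha3 was higher; of 16287 genes tested, 19.8% were called lower and 18.3% higher, 38.1% in either direction. Groups were apart for these 6, 5 lower and 1 higher; of all genes, 23.0% were lower with no overlap and 20.8% higher, 43.8% together. The median log2 change of the 7 hydroxylases was -0.07 over 10 libraries and -0.23 over 7, against -0.06 and 0.006 over all genes tested.

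Markers of other cell types differed between iron and control cultures. The 14 macrophage and Kupffer cell markers summed to 2160 to 3443 CPM with iron and 190.0 to 265.6 CPM in controls (11 of 12 tested higher), led by Clec4f at 88.9 ± 26.8 CPM with iron and 0.328 ± 0.187 CPM in controls (SD, n = 5 each). The 10 endothelial markers summed to 247.7 to 527.3 CPM with iron and 85.8 to 163.2 CPM in controls (6 of 10 higher). The 8 portal fibroblast and mesothelial markers summed to 1176 to 1841 CPM with iron and 2070 to 2928 CPM in controls. Most of that sum was Fbln2, at 1204 ± 407.2 CPM with iron and 2199 ± 350.7 CPM in controls, which was not called (edgeR adjusted p = 0.0751). Thy1 and Cd34 were called higher, 2 of the 7 tested, with log2 changes of 1.74 and 1.35. The 5 cholangiocyte markers summed to 17.4 to 75.1 CPM with iron and 14.4 to 19.7 CPM in controls (1 of 3 tested higher). Of the 9 stellate cell markers, whose sums are given above, 3 were lower over 10 libraries and 9 of 9 were lower over 7, where Reln, for example, had 87.2 ± 18.6 CPM with iron (SD, n = 3) and 309.6 ± 16.0 CPM in controls (n = 4). In such bulk samples fewer cells of a type and less RNA per cell cannot be told apart, and the part of these markers in the results below was not tested.

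Plod2 had 203.2, 196.4, 86.8, 157.8 and 23.1 CPM in iron libraries 1 to 5, against 445.2, 489.4, 473.4, 426.4 and 443.5 CPM in control libraries 1 to 5. Every iron library was below every control library, and iron libraries 3 and 5, which stood apart above, were the lowest. The log2 change was -1.77 ± 0.46 over 10 libraries (SE; edgeR adjusted p = 0.0404) and -1.28 ± 0.09 over 7 (edgeR adjusted p = 2.47e-07). P4ha2 had 73.2, 70.8, 78.6, 76.3 and 53.6 CPM in the iron libraries, against 116.4, 108.7, 97.7, 118.9 and 109.9 CPM in the control libraries. Its groups were also apart, with a log2 change of -0.65 ± 0.15 over 10 libraries (edgeR adjusted p = 0.0281) and -0.63 ± 0.07 over 7 (edgeR adjusted p = 1.01e-05). Over 10 libraries each of these calls was lost in 7 of the 10 fits that leave out 1 library, with adjusted p up to 0.105 for Plod2 and 0.0871 for P4ha2: Plod2 kept its call only without iron library 1, 2 or 5, and P4ha2 only without iron library 3 or 5 or control library 3.

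P4ha1 had 250.1, 252.4, 260.9, 250.3 and 341.3 CPM in iron libraries 1 to 5, against 284.5, 297.0, 310.6, 297.8 and 294.4 CPM in the control libraries. Iron library 5 was the highest of all 10 and the other 4 were below every control. The log2 change was -0.13 ± 0.15 over 10 libraries, which did not pass (edgeR adjusted p = 0.577), and -0.23 ± 0.06 over 7 (edgeR adjusted p = 0.00817). P4hb had 1168, 1150, 1339, 1289 and 1395 CPM in the iron libraries, against 1376, 1377, 1140, 1371 and 1393 CPM in the control libraries. Control library 3 was the lowest of the 10; without the libraries that stood apart, the remaining iron values lay below the remaining controls. The log2 change of P4hb over 10 libraries was -0.07 ± 0.16 (edgeR adjusted p = 0.794), and over 7 it was -0.20 ± 0.06 (edgeR adjusted p = 0.0224), a call that was kept without iron library 4 and lost without any of the other 6 (adjusted p up to 0.0839).

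P4ha3, with counts of 37 to 884 per library, was the least abundant member and the only called one to be higher. It had 26.7, 20.7, 12.1, 24.6 and 3.34 CPM in iron libraries 1 to 5, against 8.80, 9.81, 20.7, 12.7 and 16.1 CPM in the control libraries. The groups overlapped over 10 libraries, with iron libraries 3 and 5 the lowest of their group and control library 3 the highest of its own. The log2 change was 0.36 ± 0.47 over 10 libraries (SE; edgeR adjusted p = 0.640) and 1.01 ± 0.17 over 7 (edgeR adjusted p = 0.000482).

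Plod1 had 104.9, 105.8, 128.2, 107.2 and 157.5 CPM in the iron libraries, against 134.9, 131.7, 105.2, 134.4 and 120.1 CPM in the control libraries. Again iron libraries 3 and 5 and control library 3 crossed to the other side, and the log2 change was -0.05 ± 0.17 over 10 libraries (edgeR adjusted p = 0.858) and -0.30 ± 0.07 over 7 (edgeR adjusted p = 0.00346). Plod3 had 187.7, 180.0, 267.9, 220.0 and 418.4 CPM in the iron libraries, against 207.0, 207.2, 162.7, 218.6 and 202.7 CPM in the control libraries. Iron library 5 was far above all others, and neither the log2 change over 10 libraries (0.35 ± 0.24, edgeR adjusted p = 0.355) nor that over 7 (-0.10 ± 0.08, edgeR adjusted p = 0.355) passed; over 7 libraries without iron library 4 it was -0.17 and passed (adjusted p = 0.0186). Counts of Znhit1, the gene that overlaps Plod3, came to 18.7% of those of Plod3 in these cultures, with log2 changes of 1.45 ± 0.56 over 10 libraries and -0.04 ± 0.11 over 7, neither called.

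**Figure D4:**
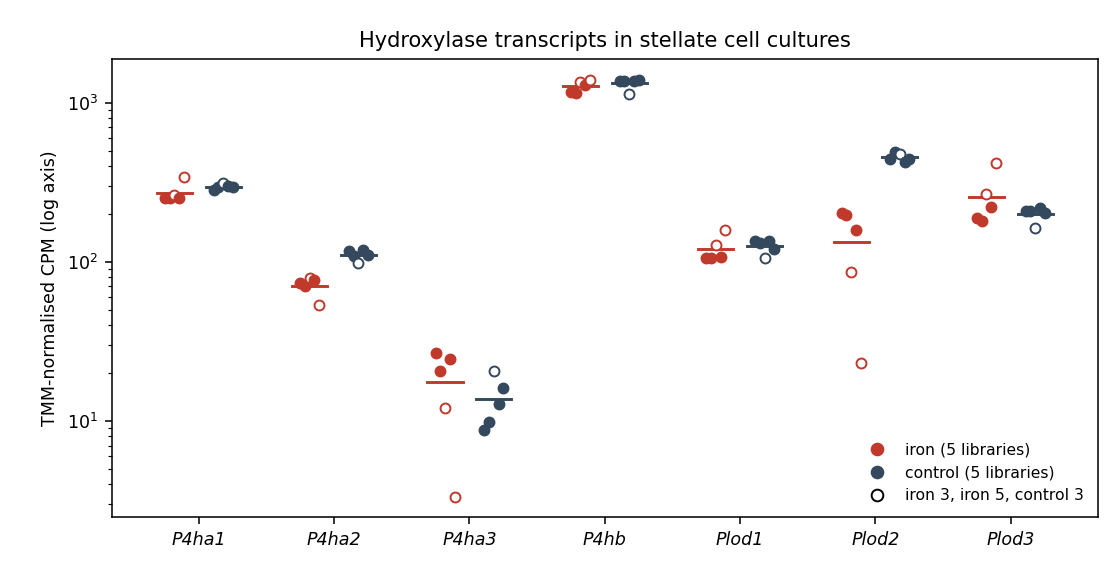
TMM-normalised CPM of the 7 hydroxylase transcripts in each stellate library (log axis), iron libraries left of control libraries for each gene, with open symbols for the 3 libraries that stood apart and bars for the mean. Plod2 and P4ha2 are below the controls in all 5 iron libraries, while open symbols of P4ha1 (iron library 5), P4ha3, P4hb, Plod1 and Plod3 cross to the other group's side.

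The order of the levels differed mainly in the place of Plod2. By mean FPKM over 10 libraries, iron cultures held P4hb (443.8 ± 18.2), P4ha1 (65.9 ± 6.56), Plod3 (55.5 ± 17.1), Plod2 (25.8 ± 15.9), Plod1 (17.8 ± 2.04), P4ha2 (11.4 ± 2.04) and P4ha3 (5.80 ± 3.44; SD, n = 5). The ranges of P4ha1 and Plod3, of Plod2 and Plod1, and of P4ha2 and P4ha3 overlapped in that group. Control cultures held P4hb (464.4 ± 57.6), Plod2 (83.98 ± 4.95), P4ha1 (71.7 ± 2.36), Plod3 (44.1 ± 6.52), Plod1 (18.5 ± 2.57), P4ha2 (17.6 ± 2.02) and P4ha3 (4.28 ± 1.35), with overlap only between Plod1 and P4ha2. Plod2 was therefore the leading lysyl hydroxylase transcript in the control cultures and held 57.5% ± 3.50 of their FPKM sum, against 26.3% ± 15.7 in iron cultures; over 7 libraries it held 36.9% ± 4.92 in iron cultures (n = 3) and 56.1% ± 1.89 in control cultures (n = 4). The hepatocyte and stellate values were normalised separately, and levels were not tested across them.

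Within libraries, Plod2 stood to Plod1 at 2.43, 2.33, 0.849, 1.85 and 0.184 in iron libraries 1 to 5, and at 4.14, 4.66, 5.65, 3.98 and 4.63 in control libraries 1 to 5. The ratio was lower in every iron library than in any control library. Its geometric mean was 1.10 with iron and 4.58 in controls over 10 libraries, and 2.19 with iron and 4.34 in controls over 7. P4ha1 to P4ha2 was higher in all 5 iron libraries, at 4.97 to 9.67 with iron and 3.71 to 4.82 in controls, and so was Plod3 to Plod1, at 2.55 to 3.98 with iron and 2.30 to 2.53 in controls. Plod2 to Plod3 was lower in all 5 iron libraries and P4ha1 to Plod2 higher in all 5. Each of these 5 ratios had an adjusted p of 0.0143 over 10 libraries and 0.0343 over 7 (exact permutation test, two-sided, adjusted over the 18 tests), from the smallest p the designs can give, 0.00794 and 0.0286; with any of the 7 libraries left out the design cannot reach the threshold after adjustment. The ratio of alpha subunits to P4hb was 0.171 to 0.199 with iron and 0.188 to 0.245 in controls, a log2 difference of -0.12 ± 0.08 over 10 libraries (SE; exact permutation test, adjusted p = 0.219) and -0.014 ± 0.049 over 7 (adjusted p = 0.771).

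**Figure D5:**
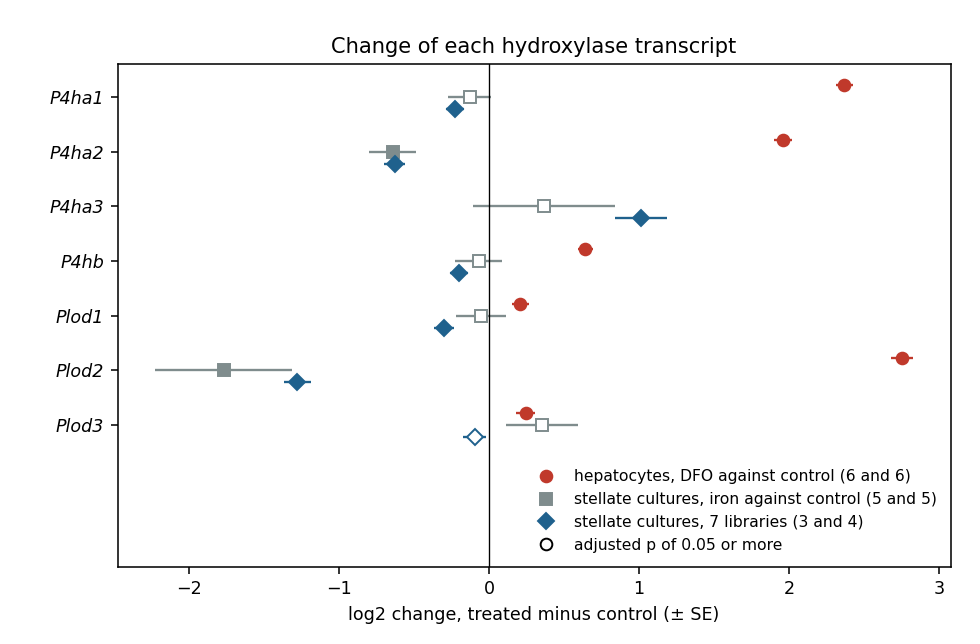
Log2 change of each hydroxylase transcript (treated minus control, ± SE) in DFO hepatocytes and in iron-treated stellate cultures over 10 and over 7 libraries; open symbols have an adjusted p of 0.05 or more. Plod2 is at 2.75 with DFO and at -1.77 and -1.28 with iron, and P4ha2 at 1.96 with DFO and at -0.65 and -0.63 with iron.

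Set side by side, Plod2 and P4ha2 were higher in DFO hepatocytes and lower in iron-treated stellate cultures. P4ha1 had log2 changes of 2.37 with DFO and -0.13 with iron over 10 libraries, -0.23 over 7. The cell types, agents and values differ between the comparisons, and the difference between them was not tested.

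The genes that act with the hydroxylases were counted in the stellate cultures too. Of the 68 pathway genes, 64 were tested over 10 libraries, 2 higher and 9 lower (median log2 change -0.53), and 66 over 7, 6 higher and 32 lower (median -0.25). Of all genes, 4.05% were called higher and 3.37% lower over 10 libraries, and 18.3% higher and 19.8% lower over 7; whether the lists differ from other genes was not tested. Of the 5 lysyl oxidases 4 were lower over 7 libraries, Lox and Loxl2 among them, and Loxl3 was higher. Lox had 904.1 ± 430.2 CPM with iron and 4189 ± 660.6 CPM in controls (SD, n = 5 each), a log2 change of -2.21 ± 0.38 over 10 libraries (SE; edgeR adjusted p = 0.00563) and -1.71 ± 0.07 over 7 (edgeR adjusted p = 3.92e-09). Of the 7 procollagen trimming genes, 1 was higher and 1 lower over 10 libraries, and 2 were higher and 2 lower over 7. Over 10 libraries Adamts2 was lower by 1.26 ± 0.16 on the log2 scale (edgeR adjusted p = 0.00103). Pcolce2 was higher by 0.77 ± 0.21 over 10 libraries (edgeR adjusted p = 0.0486) and by 0.82 ± 0.10 over 7. Tll1 was higher by 1.26 ± 0.11 over 7.

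Of 8 fibrillar chains tested, Col5a1 alone was lower over 10 libraries (log2 change -1.51 ± 0.30), and 5 were lower over 7, among them Col1a1. Col1a1 over 7 libraries had 2674 ± 104.1 CPM with iron (n = 3) and 3058 ± 210.8 CPM in controls (n = 4), a log2 change of -0.19 ± 0.07 by edgeR (SE; adjusted p = 0.0418). Over 10 libraries Col1a1 had 2118 ± 717.4 CPM with iron and 3493 ± 1242 CPM in controls, with overlapping ranges. That log2 change, -0.72 ± 0.32, did not pass (edgeR adjusted p = 0.173). Of the 11 network and beaded chains 4 were lower over 10 libraries, and 8 were lower and 1 higher over 7; Col6a2 had a log2 change of -0.96 ± 0.16 over 10 libraries and Col8a1 one of -0.99 ± 0.09 over 7. Of the 9 chaperones 5 were lower over 7 libraries and 0 over 10. Serpinh1 over 10 libraries had 2863 ± 402.9 CPM with iron and 2876 ± 491.2 CPM in controls (SD, n = 5 each; edgeR adjusted p = 0.985). P3h1 had a log2 change of -0.44 ± 0.14 over 10 libraries, which did not pass (edgeR adjusted p = 0.0839), and of -0.37 ± 0.07 over 7, which did (edgeR adjusted p = 0.00107). Gulo was at 0.145 ± 0.129 CPM with iron and 0.559 ± 0.450 CPM in controls and below the filter over 10 libraries. Over 7 libraries Gulo was tested and lower, at 0.132 CPM with iron and 0.727 CPM in controls (log2 change -2.42 ± 0.63, edgeR adjusted p = 0.00837). All 9 hepatocyte markers tested were also lower over 7 libraries, against 19.8% of all genes. Over 7 libraries Egln3 was higher by 0.51 ± 0.10 on the log2 scale (edgeR adjusted p = 0.00118) and P4htm, a transmembrane prolyl 4-hydroxylase, lower by 0.99 ± 0.22, out of 5 related enzymes. Neither passed over 10 libraries (edgeR adjusted p = 0.0867 for Egln3 and 0.174 for P4htm).

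The genes whose pattern was most like that of each member are given by Pearson's r of log2 CPM over all libraries of the cell type, among protein-coding genes with a mean FPKM of at least 5. Over the 12 hepatocyte libraries (6860 genes), Plod2 was most like Ero1l, an endoplasmic reticulum oxidase that re-oxidises protein disulphide isomerase (r = 0.998), P4ha1 most like Pfkp (r = 0.999) and P4ha2 most like Pfkl (r = 0.999), both phosphofructokinase subunits. P4hb was most like Ddc (r = 0.996), and Plod1 and Plod3 both most like Slc27a4 (r = 0.969 and 0.984). Over the 10 stellate libraries (6989 genes), Plod2 was most like Manba, Pam and Postn (r = 0.996, 0.996 and 0.995), P4ha2 most like Nucb1 (r = 0.993) and Plod3 most like Ddx24 (r = 0.993). The libraries share the treatment groups, and in the stellate cultures the libraries that stood apart, so these values describe likeness only.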

How the data were processed

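Raw counts per gene and FPKM values were deposited by the authors for each library, by Ensembl gene, and per the file headers in separate columns. The submitters' processing notes list the genome build mm10, HISAT2 2.0.1 and cutadapt 1.9.1. How reads were counted, on which annotation and strand, is not given in the sources used here. The labels' protocols name a small RNA library kit and speak of 4 replicates a group, whereas 6 and 5 libraries are listed. Libraries of 1 group all differed by more than sampling noise (lowest chi-square per degree of freedom 3.44).

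From the deposited counts, each cell type was fitted alone with edgeR 4.0.16 (R 4.3.3, TMM, filterByExpr, quasi-likelihood test, Benjamini-Hochberg adjustment over all genes tested, threshold 0.05). The fit was also run on simulated counts, drawn independently for each library with a dispersion per gene. Those counts held no libraries that stand apart, so the simulation does not cover that feature of the stellate data. Log2 changes are treated minus control with the SE that the test's F value implies. Ratios between members used the deposited FPKM values. The 7 hydroxylases were named in every comparison; up to 3 genes a pathway list were named by smallest p, plus Serpinh1, P3h1, Col1a1, Lox and Gulo. Members and lists were chosen with earlier results of these data known. Alternatives were RLE size factors, DESeq2 1.42.0, no filter on low counts, limma 3.58.1 on log2(FPKM + 1) and log2(FPKM + 0.1) with mean FPKM of at least 0.5, voom with quality weights, a replicate block, 1 added to FPKM in the ratios, and leaving out each library. The marker symbol Tf had no row, so 9 of 10 hepatocyte markers were used.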

Additional observations from a re-analysis of the deposited data

Results flagged for a closer look

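Of 52 groups of library values checked for a library far from the others of its group, 6 had such a library. For independent, normally distributed values the limit used would flag about 1 in 20 groups. These groups share libraries, and the ratios share genes with the CPM values, so the count cannot be set against that rate. In DFO hepatocytes, P4ha3 was at 0.232 CPM in library 1, above the other 5, at a level of few counts. In iron-treated stellate cultures, library 5 stood above the other 4 with P4ha1 at 341.3 CPM and with a log2 ratio of P4ha1 to P4ha2 of 3.27. In control stellate cultures, library 3 stood below the other 4 with P4hb at 1140 CPM and Plod3 at 162.7 CPM, and above them with a log2 ratio of alpha subunits to P4hb of -2.03. The 5 stellate values all belong to libraries whose FPKM sums stood apart.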

How the results depend on the processing

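In hepatocytes, each of the 6 hydroxylase calls kept its direction and its side of the threshold under all 19 alternatives; among the ratios, P4ha1 to Plod2 lost its call with FPKM + 1 (-0.0588, adjusted p = 0.339), and Plod3 to Plod1 ranged from 0.025 to 0.048 over the fits that leave out 1 library, passing without control library 1 (adjusted p = 0.0341). Over the 10 stellate libraries the calls depended on the method. Genes called were 1151, against 2924 with DESeq2, 175 with the replicate block and 6319 with voom quality weights, and 605 to 2462 when 1 library was left out. Hydroxylases called were 2, against 0 with the replicate block, 0 with limma on log2(FPKM + 0.1), 1 with limma on log2(FPKM + 1), 1 with no filter on low counts and 6 with voom quality weights, and 0 to 2 when 1 library was left out. Pathway genes called were 11, against 23 with DESeq2, 1 with the replicate block and 38 with voom quality weights, and 6 to 20 when 1 library was left out. With voom quality weights the log2 change of Plod3 turned to -0.14 (adjusted p = 0.132). The cause of these shifts was not tested. In the 7 libraries, leaving out 1 library gave log2 differences of 0.37 to 0.43 for P4ha1 to P4ha2, -1.07 to -0.87 for Plod2 to Plod1, -1.29 to -0.99 for Plod2 to Plod3, 0.12 to 0.26 for Plod3 to Plod1, 0.95 to 1.13 for P4ha1 to Plod2 and -0.040 to 0.033 for alpha subunits to P4hb, with too few libraries to pass. The P4hb call over 7 libraries was kept under 5 alternatives and lost under 9, among them limma on log2(FPKM + 1) (adjusted p = 0.111).

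The deviations of same-numbered libraries from their group means correlated at -0.245 to -0.003 in hepatocytes, -0.320 to 0.120 over 10 stellate libraries and -0.051 to 0.008 over 7. Differently numbered libraries were not compared in this way, so these values cannot tell whether same-numbered libraries were prepared as pairs. With the replicate block, Plod2 had an adjusted p of 0.139 and P4ha2 of 0.205 over 10 libraries, and P4ha1 0.0513 and P4hb 0.0951 over 7. The paired sign-flip test with the block cannot pass in the stellate designs. It gave 0.51 for P4ha1 to P4ha2, -2.05 for Plod2 to Plod1, -2.40 for Plod2 to Plod3, 0.35 for Plod3 to Plod1 and 1.98 for P4ha1 to Plod2 over 10 libraries (exact test, adjusted p = 0.075 each). Over 7 libraries it gave 0.42, -0.96, -1.18, 0.22 and 1.07 in the same order (exact test, adjusted p = 0.265 each).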
